A study of Mus musculus with 6 samples.

Results

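Alternative splicing in muscle is set by RNA-binding proteins, and the 35 genes described here encode the SR proteins, the kinases that phosphorylate them, and the regulators known for splicing in heart and skeletal muscle. They were chosen by name, as the rows of the deposited gene table whose identifiers carry the listed mouse symbols. This rule takes in no measured value, but the list was drawn up with earlier results of these data known. All 35 were found among the 20254 genes of the table: 13 SR proteins, 7 SR protein kinases, 11 muscle and tissue regulators and 4 hnRNP or general regulators. Of these, 34 reached 10 in 3 or more libraries and entered the fit over all 13823 genes that did so. Srsf12 stayed below that level and is given by its values alone.

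The hearts came from 6 C57BL/6 mice. In the knockout group (KO, n = 3) the long non-coding RNA Trdn-as, antisense to the triadin gene, was the labelled target, and the labels give neither the allele nor the sex. The wild-type group (WT, n = 3) had the same strain and tissue. In each genotype, 2 hearts were taken at 14 months and 1 at 5 months. The values are gene-level RNA amounts from whole flash-frozen hearts, normalized between libraries by the authors, so isoforms, protein and phosphorylation were not measured.

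SR proteins bind exonic RNA through RNA recognition motifs and recruit the spliceosome through a tail rich in arginine and serine. SRPK kinases phosphorylate that tail in the cytoplasm and CLK kinases in the nucleus, which controls where the proteins act. In heart, RBM20, the muscleblind, CELF, RBFOX and RBM24 families set the exons of titin, calcium-handling and sarcomere transcripts. Several of these regulators change in opposite directions as the fetal splicing pattern gives way to the adult one, and Trdn-as has itself been linked to splicing of the triadin transcript.

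Facts of the libraries that touch the results were as follows. Normalized totals ran from 19810148 to 21573127 in KO and from 19868549 to 23510139 in WT, and mitochondrially encoded genes took 41.6 to 49.4% in KO and 40.0 to 45.6% in WT. The reads behind the values are unknown, because whole reads could not be recovered. Trdn-as itself was not analysed here, while Trdn, the triadin gene, differed by -0.71 log2 between KO and WT (SE 0.10, n = 3 each, limma adjusted p = 0.261). The 4 Y-linked genes Ddx3y, Kdm5d, Eif2s3y and Uty added up to 82.2 and 54.9 in replicate 2 of KO and WT, against 2496 to 4482 and 2855 to 3895 in the other KO and WT libraries. Replicate 2 of both genotypes therefore stood apart in sex-linked genes. Both are 14-month hearts, so the comparison of ages takes in this split, which a restriction to replicates 1 and 3 leaves out. Cardiomyocyte markers were abundant everywhere, with a summed value of 744480 or more for 9 of 9 listed genes.

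Many members have annotated transcripts that give no protein. In GENCODE M21, 26 of the 35 (74.3%) had at least 1 transcript marked for nonsense-mediated decay, against 24.9% of the 17478 protein-coding genes of the table. The median member had 9 annotated transcripts, of which 50% were marked for decay or as a retained intron, against 4 and 20% for all protein-coding genes. By role this reached 11 of 13 SR proteins, 6 of 7 kinases, 5 of 11 muscle regulators and 4 of 4 hnRNP and general regulators. SR protein genes are known to limit their own output by splicing in such exons. Since the deposited values sum over transcripts, a gene can hold a steady value while the share of productive RNA changes, and this could not be seen here. Of the 31-base words of Srsf5 14.1% recur in other genes' transcripts, chiefly Gm12966, as do 10.8% for Srsf10, 10.1% for Tra2b and 7.07% for Srpk1. These are shares of annotated sequence and not of reads, so how far they touch the values is unknown. Exons of 11 members overlap genes on the other strand, as Celf2 does Gm26565 over 1961 bases, and reads of both sides cannot be told apart without strand.

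**Figure D1:**
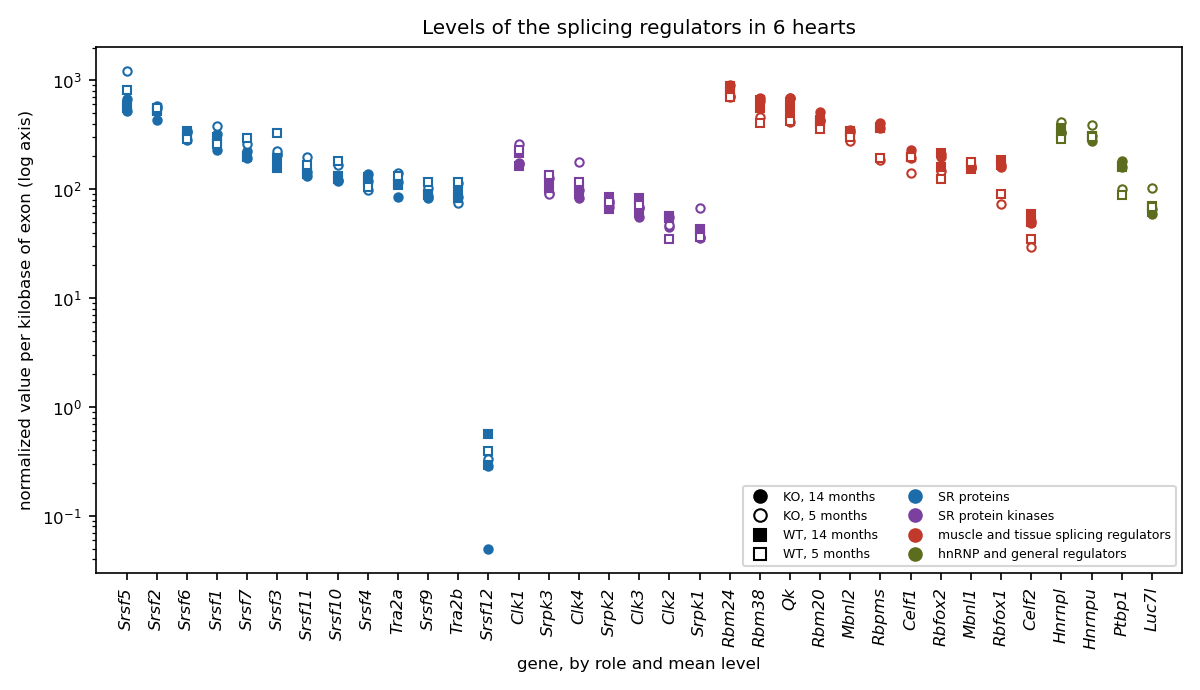
Normalized value per kilobase of exon (log axis) of the 35 genes in each of the 6 hearts, by role and mean level; circles are KO and squares WT, filled at 14 months and open at 5 months, and a value of 0 is drawn at 0.05. Rbm24 (783) and Srsf5 (729) lead, and Srsf12 lies far below all others.

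Levels were compared between genes only per kilobase of annotated exon, as the mean over the 6 hearts with its SD. Rbm24, which promotes the inclusion of muscle exons in heart, was the highest member at 783 ± 89.5. Its relative Rbm38, a target of p53 that also acts in muscle differentiation, followed among the muscle regulators at 569.7 ± 115, and Qk, whose protein binds ACUAA sites, stood at 560.2 ± 126. Of the SR proteins, Srsf5 had 729 ± 261 and Srsf2, the nuclear speckle protein SC35, had 532 ± 54.7. Hnrnpl, which binds CA-rich RNA, and Hnrnpu, a nuclear matrix protein needed for splicing in the mouse heart, led the general group at 342 ± 44.6 and 315 ± 37.5. Kinases were lower per kilobase, led by Clk1 at 202 ± 39.0 and the muscle kinase Srpk3 at 113 ± 19.3. Lowest among the tested members were Srpk1 at 43.5 ± 12.0 and Celf2 at 45.7 ± 11.2. Luc7l, which encodes a U1 snRNP-associated protein, was the lowest of the general group at 71.2 ± 15.8. The exon length used is the union over annotated transcripts, so genes with long alternative exons read low on this scale: Celf2 has 389 per kilobase of its mean transcript length.

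Srsf12, a close relative of Srsf10, was near 0 in all hearts. Its values were 0, 0.913 and 1.05 in KO and 0.916, 1.78 and 1.24 in WT. At these levels no difference was detectable, and depth is unknown. In whole hearts fewer cells of a type and less RNA per cell cannot be told apart, and this holds for every level given here.

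Over the 6 hearts the highest value of a tested member was 1.58 times its lowest in the median, from 1.16 for Mbnl1 to 2.55 for Rbfox1. Only 7 of the 34 varied by more than 2-fold. In 18 of the 34, both 5-month hearts lay above or below all 14-month hearts, 9 (26.5%) on each side. Over all genes tested the shares were near this, at 25.7% for higher and 25% for lower at 14 months.

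**Figure D2:**
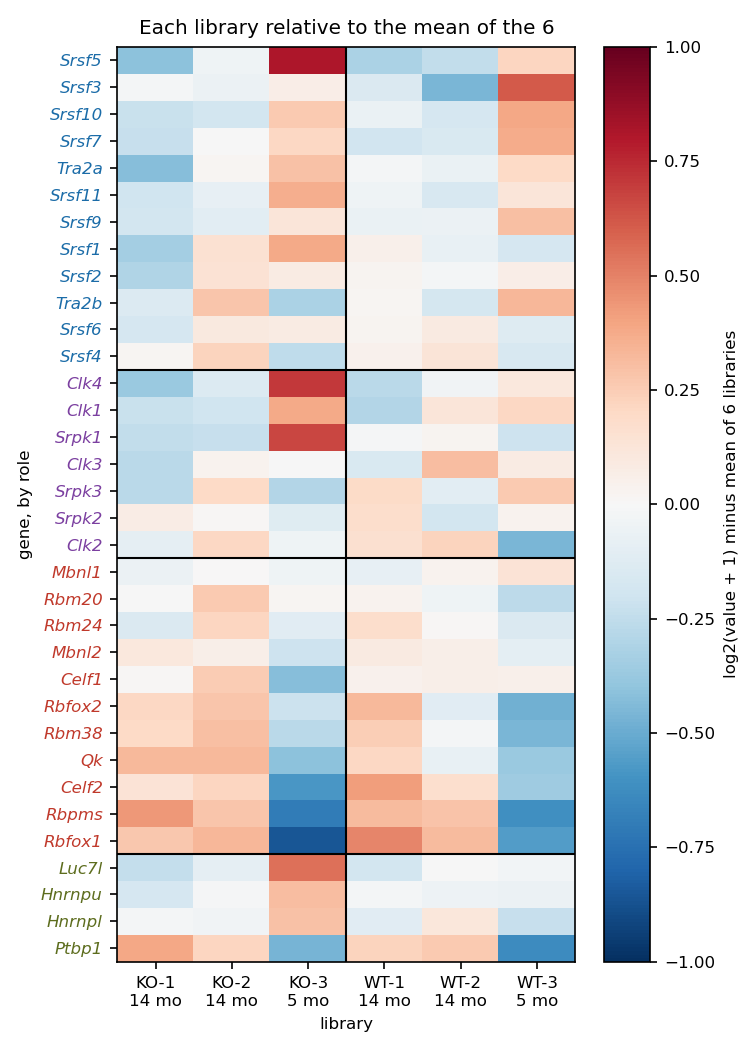
Value of each of the 34 tested members in each heart as log2(value + 1) minus the gene's mean over the 6 hearts (red higher, blue lower), KO left and WT right, genes grouped by role and ordered by their age difference. The 5-month hearts are red for Srsf5, Srsf10 and Srsf7 and blue for Rbfox1, Rbpms and Ptbp1 in both genotypes.

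Loss of Trdn-as was compared with WT by limma on log2(value + 1), with age as a covariate. No member passed an adjusted p of 0.05. Over all genes 0% were called as well (0 of 13823, limma), and limma-voom called 0. At an unadjusted p under 0.05, limma gave 841 genes (6.08%) and 0 members. Estimates for the 34 members ran from -0.24 (Srpk3) to 0.23 (Srsf5), and their adjusted p from 0.745 to 0.993. The members' median was -0.01 log2, beside -0.02 over all genes tested. All KO hearts lay above all WT hearts in 0 members, where 2.88% of all genes did so, and below in 0, where 2.89% did.

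By role, 4 of 12 SR proteins had estimates above 0 and 8 below (median -0.02), and of the 7 kinases 3 and 4 (median -0.02). The muscle regulators had 5 above and 6 below (median -0.03), and the general regulators 4 above and 0 below (median 0.12). That last median was -0.04 in the 14-month libraries alone, which is also the estimate left when either 5-month heart is dropped. In pairs of the same replicate number, KO was the higher in 8, 21 and 18 of the 34 members.

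The intervals bound what these hearts could show. All 34 members had a 95% interval of KO minus WT inside 1 log2 unit on either side, and 26 lay within 0.5. The widest bounds were -0.66 for Srpk3 and 0.62 for Srpk1. A 2-fold difference thus lay outside every interval, while smaller ones lay inside many of them.

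Rbm20, the titin splicing repressor whose mutations cause dilated cardiomyopathy, had the smallest p. It measured 2882, 3460.4 and 2928 in KO and 2951, 2795 and 2405 in WT. The groups overlapped, with the KO mean at 3090.2 (SD 321) and the WT mean at 2717 (SD 281). The fitted difference was 0.19 log2 (SE 0.12, n = 3 each, limma adjusted p = 0.745).

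Srsf5, an SR protein known to respond to insulin, had 2089, 2691 and 4868 in KO and 2230.2, 2342 and 3221 in WT. The 5-month heart was the highest of each genotype, and the fitted difference was 0.23 log2 (SE 0.15, n = 3 each, limma adjusted p = 0.745). It was 0.05 in the 14-month libraries alone, the estimate left when either 5-month heart is dropped, and 0.39 without KO-1. Next in order of p came Rbfox1 (-0.17, SE 0.12), Rbm38 (0.15, SE 0.12), Rbfox2 (0.18, SE 0.14) and Celf2 (-0.15, SE 0.12). Their limma adjusted p ran from 0.745 to 0.752.

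Among the abundant members outside the age calls, Rbm24 had 2454, 3154 and 2518 in KO and 3069, 2742 and 2462 in WT. Srsf2 had 1268, 1731 and 1661 in KO and 1594, 1548 and 1636 in WT. In both genes the KO range contained all WT values, and the differences were -0.03 (SE 0.13) and -0.05 (SE 0.14). Srpk3, a kinase driven by the muscle factor MEF2, had 258, 356 and 253 in KO and 355, 288 and 373 in WT (-0.24, SE 0.18, limma adjusted p = 0.753).

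The muscleblind genes, whose loss underlies the splicing defects of myotonic dystrophy, varied little. Mbnl1 had 2905, 3031 and 2933 in KO and 2857, 3091 and 3322 in WT. Mbnl2 had 4171, 4020.2 and 3345 in KO and 4119.5, 4020.2 and 3612 in WT. Between genotypes neither passed, at -0.06 (SE 0.11) and -0.03 (SE 0.10). Muscleblind and CELF proteins often act against each other on the same exons, and Celf1 stood at -0.10 (SE 0.15).

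**Figure D3:**
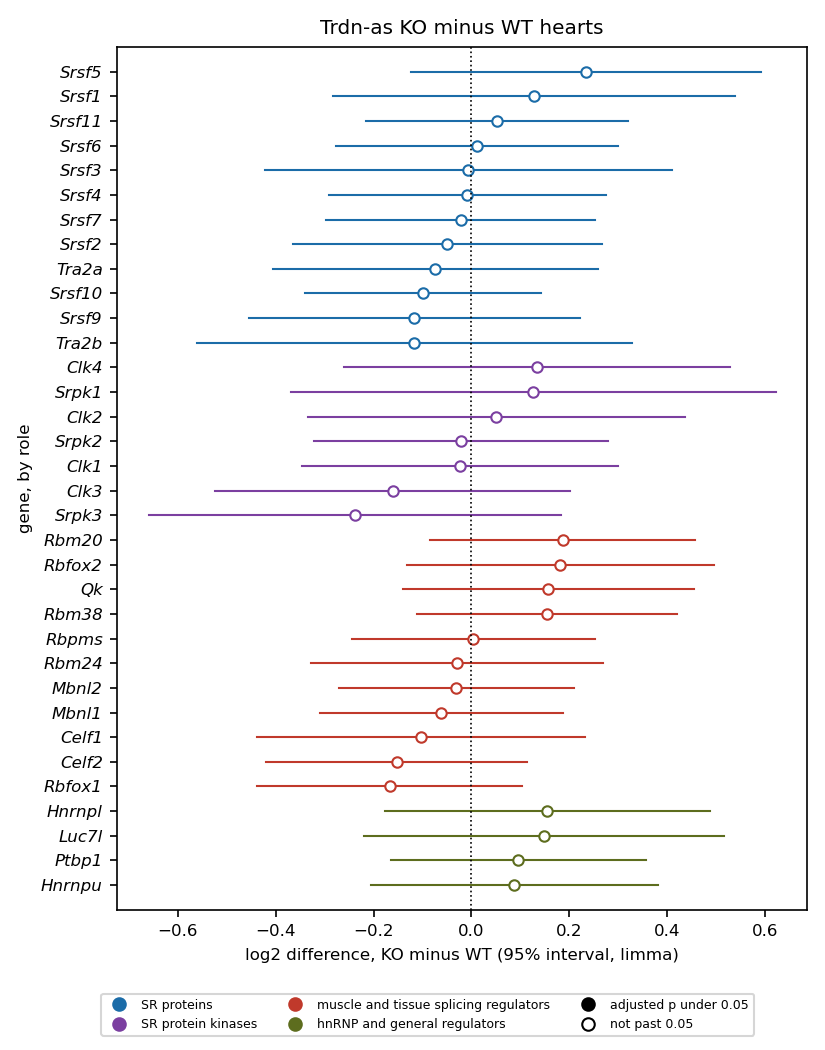
Log2 difference of KO minus WT (x axis) for the 34 tested members by role, as limma estimates with 95% intervals; open circles did not pass an adjusted p of 0.05. All circles are open, from -0.24 for Srpk3 to 0.23 for Srsf5.

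Many members differed between the ages. Of the 34 tested, 11 passed an adjusted p of 0.05 between 14 and 5 months with genotype as a covariate: 7 higher at 14 months and 4 lower. The higher were Rbfox1, Rbpms, Ptbp1, Celf2, Qk, Rbm38 and Rbfox2, and the lower Srsf5, Clk4, Srsf10 and Srsf7. This count was close to the background, since 33.7% of all 13823 genes were called by age (17.7% higher, 16% lower), against 32.4% of the members. The members' share is thus near that of all genes, and what follows describes which ones moved and in which direction. Without WT-1 the count was 7. At an unadjusted p under 0.05 there were 16 members, where 44.7% of all genes passed. The members' median age difference was -0.03 log2, beside 0.02 for all genes. The 5-month hearts are replicate 3 of each genotype, so age cannot be told apart from anything else that set those libraries apart.

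By role the age differences fell on different sides. In the muscle and tissue regulators, 6 of 11 rose at 14 months, 0 fell and 5 did not pass, and 10 of 11 estimates were above 0, with a median of 0.52 log2. The SR proteins had 0 that rose, 3 of 12 that fell and 9 that did not pass, 10 of 12 below 0 and a median of -0.34. Among the kinases 1 of 7 fell and 6 did not pass (median -0.06), and in the general group 1 of 4, Ptbp1, rose (median -0.12). Scaled without mitochondrially encoded genes, which moved the median of all genes to 0.22, these medians were 0.72, -0.14, 0.14 and 0.08, so the last 2 turned sign. With trends on transcript length and GC content removed, the SR protein median was -0.06 and that of the muscle regulators 0.36, where all genes had 0.09. These medians are descriptions and were not tested against each other. Taken alone, KO and WT had medians of 0.52 and 0.44 for the muscle regulators, -0.30 and -0.30 for the SR proteins and -0.12 and -0.04 for the kinases. The general regulators lay on opposite sides, at -0.36 in KO and 0.13 in WT.

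**Figure D4:**
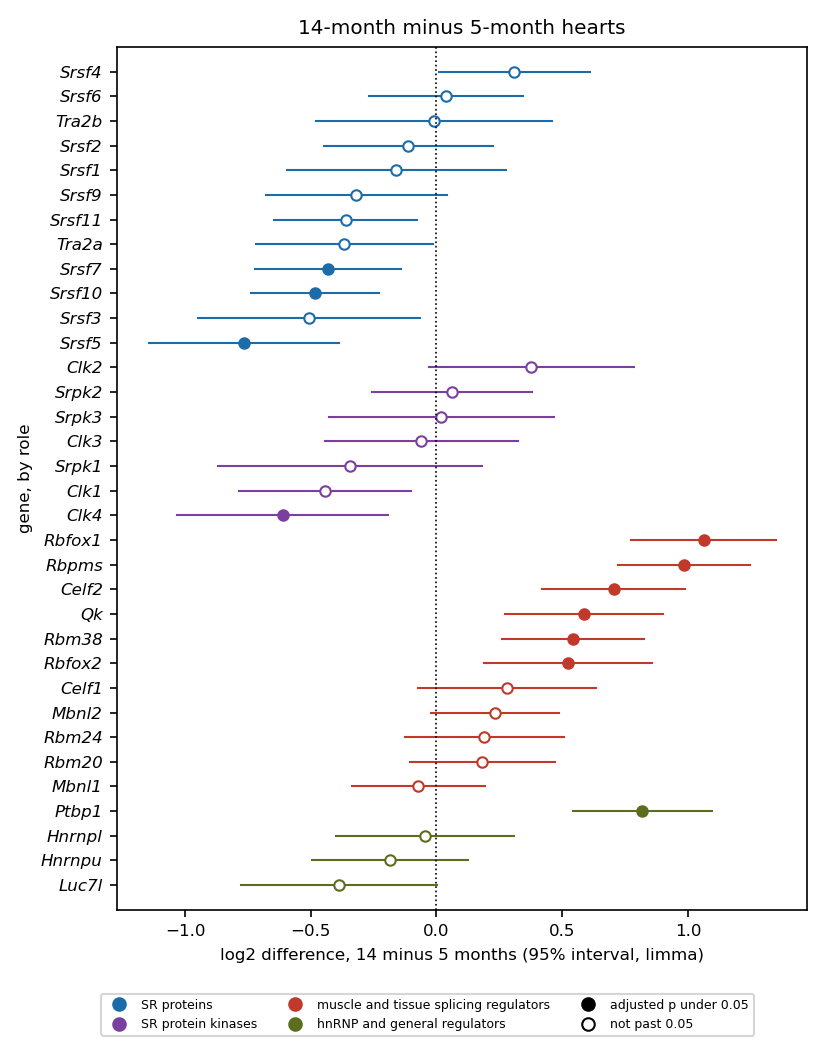
Log2 difference of 14 minus 5 months (x axis) for the 34 tested members by role, as limma estimates with 95% intervals; filled circles passed an adjusted p of 0.05. The filled muscle and tissue regulators lie from 0.52 to 1.06, and the filled SR proteins from -0.77 to -0.43.

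Rbfox1, which binds GCAUG and sets muscle exons in heart and skeletal muscle, changed most. It had 704 and 736 in the 14-month KO hearts and 821 and 729 in the 14-month WT hearts, against 322 and 395 in the 5-month KO and WT hearts. Every 14-month heart lay above both younger ones. The mean was 747 (SD 51.2, n = 4) at 14 months and 359 (SD 51.5, n = 2) at 5 months, a log2 difference of 1.06 (SE 0.12, limma adjusted p = 0.000981).

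Its paralogue Rbfox2, which acts on the same sites and is known to fall in failing mouse hearts, rose by less. Values were 1621, 1699.7, 1752 and 1297 in 14-month KO-1, KO-2, WT-1 and WT-2, and 1207 and 1004 in the 5-month KO and WT hearts. The ages did not overlap (0.52 log2, SE 0.14, limma adjusted p = 0.0264). The call was lost without KO-1, KO-2, WT-1 or WT-3, with estimates of 0.42 to 0.55.

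Rbpms, which binds CAC-containing RNA and in rat smooth muscle cells drives the differentiated splicing programme, stood at 2637, 2370.0, 2438 and 2391 at 14 months. The 5-month KO and WT hearts had 1205 and 1282. Means were 2459 (SD 122, n = 4) at 14 months and 1243 (SD 54.6, n = 2) at 5 months, 0.98 log2 apart (SE 0.11, limma adjusted p = 0.000937). Spread within an age was small beside the gap.

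Ptbp1, the polypyrimidine tract binding protein that represses muscle and neuronal exons and declines as muscle cells differentiate, was also higher at 14 months. It had 853, 756, 759 and 780.5 there, and 472 and 421 in the 5-month KO and WT hearts (0.82 log2, SE 0.12, limma adjusted p = 0.00221). Of its 31-base words 11.5% occur in transcripts of other genes, chiefly the pseudogene Gm4900, and its exons overlap antisense genes by 983 bases, so a part of its value may come from those.

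Celf2, a relative of Celf1 that is expressed in muscle, brain and lymphocytes, had 1267, 1334, 1534 and 1292 at 14 months and 767 and 899 at 5 months in KO and WT. Again the ages were apart (0.70 log2, SE 0.12, limma adjusted p = 0.00425). Celf1, whose product is high in fetal heart, had 1627, 1925, 1663 and 1682 at 14 months and 1201 and 1668 at 5 months. Those values overlapped, and Celf1 did not pass (0.28 log2, SE 0.15, limma adjusted p = 0.193).

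Qk, which encodes several isoforms of the STAR protein quaking, had 9758, 9786, 9005 and 7418 at 14 months, against 5859.8 and 6041 at 5 months in KO and WT (0.59 log2, SE 0.14, limma adjusted p = 0.0138). Without WT-1 its call was lost, at 0.55. Rbm38 had 1847, 1974, 1899 and 1585 at 14 months, against 1331 and 1170.4 at 5 months (0.54 log2, SE 0.12, limma adjusted p = 0.012). For both genes each older heart exceeded each younger one. Rbm20, Rbm24, Mbnl1 and Mbnl2, the regulators most often tied to cardiac exons, did not pass, with estimates of 0.18, 0.19, -0.07 and 0.23 (limma adjusted p of 0.141 to 0.660).

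The SR proteins leaned the other way. Srsf5 had 2089 and 2691 in 14-month KO and 2230.2 and 2342 in 14-month WT, against 4868 and 3221 in the 5-month KO and WT hearts. Both younger hearts were above all older ones, the KO one by the wider margin. The log2 difference was -0.77 (SE 0.16, limma adjusted p = 0.00991), with -1.04 in KO and -0.49 in WT.

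Srsf10, which turns into a splicing repressor when dephosphorylated under heat shock, had 833, 859.7, 931 and 867 at 14 months and 1168 and 1273 at 5 months. The difference was alike in KO (-0.46) and WT (-0.50) and -0.48 in the joint fit (SE 0.11, limma adjusted p = 0.0131). In replicates 1 and 3 alone it was -0.47 and not called (limma adjusted p = 0.149), and with length and GC trends removed -0.10 (0.538). Srsf7, an SR protein with a zinc knuckle, had 683, 799, 703 and 723 at 14 months and 924 and 1038 at 5 months (-0.43, SE 0.13, limma adjusted p = 0.0322). Its call was lost without KO-1, WT-1, WT-2 or WT-3, with estimates of -0.42 to -0.32.

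Clk4, a nuclear kinase of SR proteins, had 484, 572, 519.5 and 612 at 14 months, against 1026 and 676 at 5 months in KO and WT. The 5-month KO heart was the outstanding value, and the difference was -0.96 in KO and -0.26 in WT. Jointly it was -0.61 (SE 0.18, limma adjusted p = 0.0339). Without KO-3 it was -0.26 and not called, and the call was also lost without KO-1, KO-2 or WT-1. Clk1, its close paralogue, had 1389, 1412, 1319 and 1759.8 at 14 months and 2106 and 1869 at 5 months, without overlap, yet did not pass (-0.44, SE 0.15, limma adjusted p = 0.0517).

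The remaining kinases did not pass by age. Clk2 had 241, 295 and 248 in KO and 286, 299 and 186 in WT, with the 5-month WT heart lowest (0.38 log2 by age, limma adjusted p = 0.136). Clk3 had 472, 583 and 569 in KO and 512, 708 and 604 in WT. Srpk2, expressed in brain and muscle, had 1094, 1046 and 957 in KO and 1175, 916 and 1065 in WT. In Clk3 and Srpk2 the ages overlapped and neither passed.

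Srsf11 (-0.36), Tra2a (-0.37), Srsf9 (-0.32) and Srsf3 (-0.51) also had both 5-month hearts above all older ones and did not pass (limma adjusted p of 0.0537 to 0.151). Srsf4 and Mbnl2 had them below all older ones and did not pass either. Non-overlap of the ages took in 26.5% of members on each side, against 25.7% of all genes for higher and 25% for lower at 14 months. Srsf1, needed for the postnatal splicing switch of Camk2d in the mouse heart, stood at -0.16 (SE 0.19), Srsf2 at -0.11 (SE 0.15), Srsf6 at 0.04 (SE 0.13) and Tra2b at -0.01 (SE 0.20).

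Promoters are shown for members that moved together with age, so that their start regions can be compared. Each line runs 5′ to 3′ from 250 bases before to 50 after the RefSeq start (GRCm38.p6). Capitals mark the GC box GGGCGG, the CCAAT box CCAAT, the TATA box TATAAA, the cAMP response element TGACGTCA and the E-box CACGTG, on either strand; no motif holds another. Srsf5 (chr12:80945249-80945548, plus strand), Srsf10 (chr4:135855821-135856120, plus) and Clk4 (chr11:51262864-51263163, plus) were lower at 14 months. Ptbp1 (chr10:79854182-79854481, plus) and Rbfox1 (chr16:7069585-7069884, plus) were higher.
Srsf5: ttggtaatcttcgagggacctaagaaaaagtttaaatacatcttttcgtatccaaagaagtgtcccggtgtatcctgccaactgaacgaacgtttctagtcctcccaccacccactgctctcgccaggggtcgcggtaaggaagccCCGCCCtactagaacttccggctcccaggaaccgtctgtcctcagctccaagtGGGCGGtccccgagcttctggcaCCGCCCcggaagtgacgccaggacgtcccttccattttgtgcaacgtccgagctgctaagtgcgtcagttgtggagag
Srsf10: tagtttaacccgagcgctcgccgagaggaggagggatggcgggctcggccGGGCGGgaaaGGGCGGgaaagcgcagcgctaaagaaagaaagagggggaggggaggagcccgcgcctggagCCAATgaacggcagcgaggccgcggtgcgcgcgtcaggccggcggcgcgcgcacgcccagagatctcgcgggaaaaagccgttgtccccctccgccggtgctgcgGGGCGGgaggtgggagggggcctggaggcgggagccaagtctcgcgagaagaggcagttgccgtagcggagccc
Clk4: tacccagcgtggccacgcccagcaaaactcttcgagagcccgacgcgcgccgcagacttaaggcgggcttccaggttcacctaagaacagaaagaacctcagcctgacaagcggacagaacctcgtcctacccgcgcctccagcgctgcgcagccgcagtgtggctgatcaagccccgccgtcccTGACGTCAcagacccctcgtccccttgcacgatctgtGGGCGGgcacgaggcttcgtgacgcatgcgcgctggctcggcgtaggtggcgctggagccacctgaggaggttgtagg
Ptbp1: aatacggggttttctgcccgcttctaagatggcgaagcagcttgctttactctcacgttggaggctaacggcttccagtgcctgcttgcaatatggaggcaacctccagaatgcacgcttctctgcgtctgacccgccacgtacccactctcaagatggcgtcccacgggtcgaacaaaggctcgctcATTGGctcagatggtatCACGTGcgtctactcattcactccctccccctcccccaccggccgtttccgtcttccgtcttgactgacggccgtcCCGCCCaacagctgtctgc
Rbfox1: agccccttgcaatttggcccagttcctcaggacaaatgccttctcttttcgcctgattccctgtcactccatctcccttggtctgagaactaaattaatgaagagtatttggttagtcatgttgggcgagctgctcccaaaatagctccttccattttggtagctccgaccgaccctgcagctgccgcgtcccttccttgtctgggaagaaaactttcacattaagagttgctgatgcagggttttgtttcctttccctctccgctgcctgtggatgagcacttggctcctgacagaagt

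The GC box was the common feature. Of the members, 30 matched the RefSeq promoter table with 41 windows, and 29 windows (70.7%) held a GC box, against 35.7% of all 32851 windows of 300 bases. Counted by member, it was found for 25 of the 30 matched, among them 4 of the 4 lower at 14 months and 3 of the 5 higher. With so few members these counts do not set the 2 directions apart, and members with several windows had more chances of a match. CCAAT was in 26.8% of member windows (37.4% of all), TATAAA in 14.6% (13.6%), TGACGTCA in 4.88% (1.79%) and CACGTG in 7.32% (7.15%). Of the 2 Rbfox1 windows the downstream one is shown; it holds none of the 5 motifs, and that of Clk4 holds the cAMP response element. Member windows had a median GC content of 63.7%, against 52.7% for all. These are matches of letters, not binding sites.

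Transcript composition also moved with age over the whole table. Genes called higher at 14 months had a median GC content of 53.8% and a mean transcript length of 2264 bases in the median, and genes called lower had 48.2% and 1234 bases. The 7 members that rose had 52.1% GC and the 4 that fell 42.6%. In length the members went the other way, with a median of 1387 bases for those that rose and 1634 for those that fell. When per-library trends on length and GC were removed, 6 members stayed called, all higher (Celf2, Ptbp1, Rbfox1, Rbpms, Rbfox2 and Qk), and the 4 lower calls were lost. Srsf5 was then at -0.47, Srsf10 at -0.10, Srsf7 at -0.06 and Clk4 at -0.02, and Rbm38 at 0.33 was not called.

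Scaling each library without mitochondrially encoded genes also ended the 4 lower calls, at -0.57 for Srsf5, -0.28 for Srsf10, -0.23 for Srsf7 and -0.41 for Clk4. Relative to the shifted median of all genes they lay lower, as in the deposited scaling. With this scaling 10 members were called, all of them higher, where 3403 of all genes were called higher and 1233 lower. Celf1, Mbnl2 and the SR protein gene Srsf4 were called there and not in the deposited scaling. The calls of Celf2, Ptbp1, Rbfox1 and Rbpms were made under all 18 alternatives tried.

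Some cell type markers and handling genes differed between the ages as well, where 17.7% of all genes were called higher and 16% lower. The smooth muscle and pericyte markers (10 of 10 found) summed to 23098 to 26391 at 14 months and 15744 to 20906 at 5 months, with 4 of 10 called higher. Endothelial markers (10 of 10) summed to 17074 to 22355 and 12339 to 14277, with 5 called higher and 1 lower. Atrial markers (6 of 6) ran from 14048 to 27091 at 14 months and from 41483 to 65229 at 5 months, with 5 called lower. Cardiomyocyte markers (9 of 9) ran from 744480 to 824550 at 14 months and from 844280 to 1390600 at 5 months, with 1 called higher and 5 lower. Mesothelial markers (6 of 6) summed to 291 to 570 at 14 months and 109 to 164 at 5 months, with 4 called higher. Fibroblast markers (9 of 9) overlapped, at 18444 to 20904 and 13359 to 20827, with 3 called higher and 2 lower. Macrophage markers had 2 of 9 called higher and 0 lower. In the lymphocyte, adipocyte, erythroid and skeletal muscle lists 0 tested markers were called by age. Erythroid sums differed widely between single hearts, from 2729.5 in KO-3 to 66930 in WT-1. No marker of these lists was at 0 in every heart. Immediate early and cold-inducible genes, which respond to handling, had 13 of 20 called higher and 2 lower, led by Egr1 at 2.85 log2 (SE 0.25, limma adjusted p = 0.000363). By genotype 0 of these 20 were called, yet 11 had an unadjusted limma p under 0.05, where 6.08% of all genes did. Their KO minus WT estimates were above 0 in 17 and below in 3, with a median of 0.38 log2. Rbpms, Celf2, Qk and Ptbp1 are also expressed outside cardiomyocytes. The part of cell makeup, atrial tissue and handling in the members' differences was not tested.

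**Figure D5:**
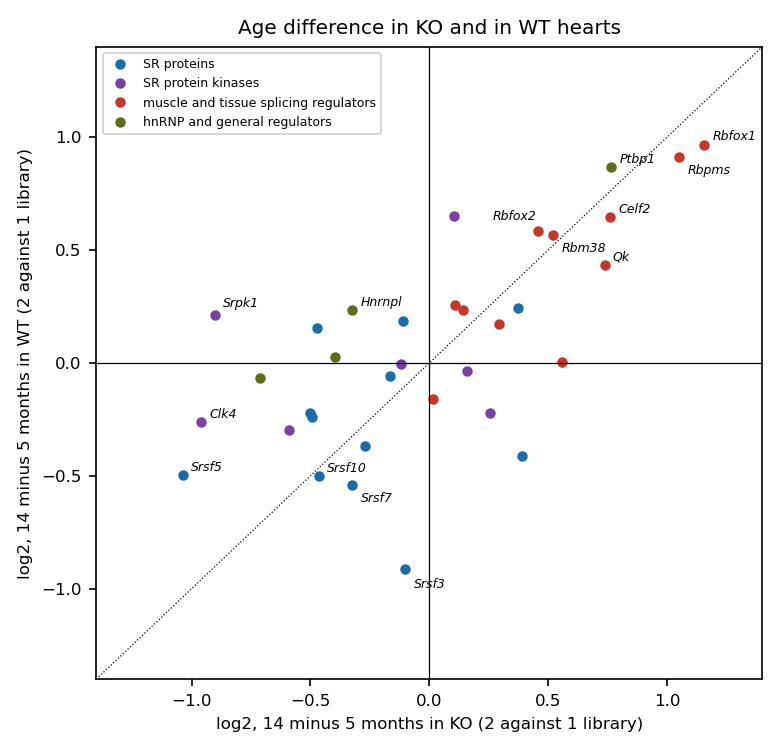
Log2 difference of 14 minus 5 months in KO (x axis) against the same in WT (y axis) for the 34 tested members, each from 2 older hearts and 1 younger heart; the dotted line marks equal differences, and named genes were called by age or lead the interaction. Rbfox1, Rbpms and Ptbp1 lie near the line at the upper right, while Srpk1 stands at -0.90 in KO and 0.21 in WT.

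KO and WT share no library in their age differences, so they can be set side by side. The sign was the same in both genotypes for 25 of 34 members (73.5%), beside 71.2% of all genes tested. Of these, 13 were higher at 14 months in both, where 36.4% of all genes were, and 12 lower, where 34.8% were. Whether the age difference depended on genotype was tested as KO minus WT at 14 months minus that at 5 months, with a lone heart per genotype at 5 months. Over all genes limma called 287 (2.08%; 1.19% higher and 0.883% lower), and of the members 1, Srpk1, which was lower. At an unadjusted p under 0.05 there were 9 members, where 23.2% of all genes passed.

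Srpk1, the cytoplasmic SR protein kinase, had 443 and 446 in the 14-month KO hearts and 519.7 and 535 in the 14-month WT hearts. At 5 months it had 832 in KO and 455 in WT. KO was thus below WT by 0.24 log2 at 14 months and above it by 0.87 at 5 months, a difference of -1.11 (SE 0.18, limma adjusted p = 0.0391). The 5-month KO heart stood above the other 5. The call was lost without any 14-month library (adjusted p of 0.0547 to 0.113), with limma-voom (0.0594), with quantile normalization (0.0549), without a filter on low values (0.132) and without the trend and robust options (0.177). Counts of all genes called in this test ran from 4 to 750 between settings.

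Srsf3, the smallest SR protein, pointed the other way without passing. It had 1667 and 1625 in 14-month KO, 1765 in 5-month KO, 1532 and 1228 in 14-month WT and 2581 in 5-month WT (0.81, SE 0.21, limma adjusted p = 0.0879). Of its 31-base words 13.8% occur in other transcripts, mainly the pseudogene Gm12355. Hnrnpl had 1988 and 1966 in 14-month KO, 2476 in 5-month KO, 1866 and 2187 in 14-month WT and 1718 in 5-month WT (-0.56, SE 0.18, limma adjusted p = 0.129).

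In the general group the 5-month KO heart was the highest of all 6 for Hnrnpl, Hnrnpu and Luc7l. Hnrnpu had 3232, 3608 and 4495 in KO and 3584, 3504 and 3481 in WT. Luc7l had 447, 494 and 769.8 in KO and 462, 524 and 515 in WT. Neither passed in any of the 3 comparisons. Beside these values, cardiomyocyte markers summed to 844280 in the 5-month KO heart and to 1390600 in the 5-month WT heart, while the older hearts held 744480 to 824550. The part of that gap in the differences at 5 months was not tested.

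The wider splicing machinery was described from lists named beside the members, with limma calls over all genes. By genotype, 0 genes of these lists were called. Over all genes 17.7% were called higher and 16% lower by age, and the counts of the lists are given beside that without a test. The core spliceosome had 6 of 42 higher and 13 lower at 14 months, the other hnRNP genes 4 of 21 higher and 6 lower, and the SR-related and exon junction factors 6 of 21 higher and 4 lower. Other sequence-specific regulators had 4 of 22 higher and 4 lower, and other kinases acting on splicing factors 5 of 10 higher and 0 lower. The medians of these lists by age were -0.10, -0.22, 0.10, -0.04 and 0.38, beside 0.02 for all genes.

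The genes named next are called genes of smallest p in their lists, so large differences come with that choice. Sf3a2 and Sf3a1, subunits of the U2 snRNP factor SF3A, were higher at 14 months by 1.71 (SE 0.16) and 1.29 (SE 0.13), at adjusted p of 0.000452 and 0.000607 by limma. Snrpe, a core Sm protein, differed by -1.31 (SE 0.14), and U2af1, the reader of the 3′ splice site, by -1.22 (SE 0.16). Raver1, a partner of Ptbp1 in exon repression, averaged 523 (SD 46.1, n = 4) at 14 months and 166 (SD 27.4, n = 2) at 5 months, a rise of 1.65 (SE 0.16, limma adjusted p = 0.000494). Tardbp, encoding TDP-43, averaged 1160.5 (SD 62.5) at 14 months and 2552 (SD 325) at 5 months (-1.13, SE 0.12). Hnrnpa1 and Hnrnph1 were lower at 14 months by -0.86 (SE 0.12) and -0.72 (SE 0.13), and Hnrnpul1 was higher by 0.86 (SE 0.11).

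Heart genes known for regulated splicing were read only as total gene levels. Of 24 such genes, 6 were higher and 6 lower at 14 months and 0 were called by genotype. Mef2d, a muscle transcription factor with a muscle-specific exon, was higher at 14 months by 1.14 (SE 0.15, limma adjusted p = 0.0015). Fxr1, an RNA-binding protein with muscle-specific exons, and Dtna, which encodes dystrobrevin, were lower by -0.91 (SE 0.12) and -1.24 (SE 0.15). In the interaction test Srrm2 and Srrm1, SR-related matrix proteins of the spliceosome, were called beside Srpk1, at -1.39 (SE 0.22) and -1.21 (SE 0.23) with limma adjusted p of 0.0388 and 0.0483. Srrm2 had 3368 and 4275 in 14-month KO and 5243 in 5-month KO, against 3671 and 4112 in 14-month WT and 2051 in 5-month WT. These calls too rest on 1 heart per genotype at 5 months, and over 13 alternatives Srrm2 was not called in 6 and Srrm1 not in 8.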

How the data were processed

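RNA from 6 flash-frozen mouse hearts (3 KO, 3 WT) was extracted with Trizol and sequenced on Illumina libraries made from 1 ug of total RNA, per the labels' protocols. Reads were quantified with Salmon 1.5.2 on mm10, per the submitters' processing notes; the sources used here give no annotation, strandedness or normalization. The deposited values are a normalized gene-level signal: they are not whole, and each library's median ratio to the across-library geometric mean was 1.00 to 1.01. At most 11.7% of low values lay on a common step (tolerance 0.01), so whole reads were not recovered, depth is unknown and a count test was not used.

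GENCODE M21 on GRCm38, the build of mm10, named 20122 identifiers and left 132 without a match; 108 broken lines were dropped. limma 3.58.1 in R 4.3.3 was fitted to log2(value + 1) with trend and robust options over the 13823 genes at 10 or more in at least 3 libraries (6431 did not reach it). P-values were adjusted by Benjamini-Hochberg over these genes, with 0.05 as limit. The genotype fit had age as covariate (3 residual degrees of freedom), the age fit genotype, and the interaction 2 residual degrees of freedom. Fold changes are differences on the log2(value + 1) scale. The scripts were tested on simulated data.

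All members were accounted for. Named with full statistics were members called in any comparison, the 6 of smallest p by genotype and by age and the 3 of the interaction, and in each role the 2 highest and 1 lowest per kilobase; of other lists, up to 3 called genes. Mbnl1, Mbnl2, Celf1, Srsf1 and further members outside the rule were named after their values were seen. Although the rule goes by symbol alone, the members and lists were chosen with earlier results of these data known. Labels do not state that samples were separate litters, so p-values measure the spread between these samples.

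Replicate numbers are shared by KO and WT titles. Deviations from the genotype means correlated at 0.390, 0.383 and 0.617 for same-number libraries. Cross pairs of 14 months reached 0.369 and 0.382, and within 14 months alone the value was 0.0147. The shared deviation thus follows the split between the ages, which is also the split of replicate 3 from the others. Alternatives covered pseudocounts, filters, scalings, covariates, the replicate block, length and GC trends, limma-voom and libraries left out; restriction to replicates 1 and 3 and the left-out libraries of the interaction were added after seeing the data. A count of 31-base words shared with other genes' transcripts marks members whose reads could be split, and exons of 11 members overlap antisense genes.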

Additional observations from a re-analysis of the deposited data

Results flagged for a closer look

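Srpk1 passed the test of whether the genotype difference depended on age, in which each genotype has 1 heart at 5 months. The genotype difference at 14 months, less the one at 5 months, came to -1.11 log2 (limma, SE 0.18, adjusted p = 0.0391), with values of 443, 446 and 832 in KO and 519.7, 535 and 455 in WT, the last of each at 5 months. The adjusted p ran from 0.0222 to 0.177 over 13 alternatives, with a call in 5 of them and none in the other 8, and the estimate from -1.39 to -1.09. No member had a 14-month heart apart from the other 3 by Dixon's test at its 95% critical value, where chance would flag about 1 in 20 groups.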

How the results depend on the processing

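By genotype no member was called under any of the 20 alternatives. The 6 members with the smallest p, picked in these same data, kept their sign in all of them. Many alternatives could not change that sign. The filters, the limma options, the age covariate and the replicate block left each estimate as it was. Dropping either 5-month heart gave the estimate of the 14-month libraries alone. With the replicate block 0 genes and 0 members were called, and the members' median was -0.01. The block was fitted for KO against WT only, where it changed no call of a member, since replicate 3 is also the 5-month age. Over all genes, KO against WT gave 14 calls in the 14-month libraries only and 39 in replicates 1 and 3 only, and 0 to 5 with a library left out. The members' median by genotype was 0.10 when scaled without mitochondrially encoded genes, and -0.05 to 0.07 with a library left out. By age, the members called numbered 6 with length and GC trends removed, 6 in replicates 1 and 3 only and 7 to 15 with a library left out, and the calls over all genes 3011 in replicates 1 and 3 only and 3246 to 4533 with a library left out. The split over all genes moved to 3403 higher and 1233 lower when scaled without mitochondrially encoded genes, and to 2025 and 1193 with length and GC trends removed. The members' median by age was 0.17 in that scaling, 0.074 with trends removed and -0.106 to 0.017 with a library left out. For the interaction, the genes called numbered 4 without a filter, 12 with quantile normalization, 750 scaled without mitochondrially encoded genes, 7 without trend and robust options, 5 with limma-voom and 13 to 234 with a 14-month library left out. Members called there were 0 in these settings save 2 in the scaling without mitochondrially encoded genes, Srpk1 and Hnrnpu. The causes were not tested. None of the 20 member differences followed under the alternatives changed sign, and these were chosen as called or of smallest p. Other members were refitted too, but their signs were not followed one by one. Signs did turn among the kinases. Their median by age went from -0.06 to 0.14 when scaled without mitochondrially encoded genes. A left-out 5-month library cannot be had for the interaction, because its genotype would then have no heart of that age. With a lone library in an arm, its spread is assumed to be that of the others. Depth is unknown, so the counting error of low values such as Srsf12 could not be set.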
